A study of Mus musculus with 16 samples.

Results

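SR proteins and heterogeneous nuclear ribonucleoproteins (hnRNPs) were examined in TUBO cells, a line from the mammary carcinomas of BALB-neuT mice, in which an activated rat ErbB2 (neu) transgene drives the tumour. Members were all genes whose symbol on the bead array starts with Srsf, Sfrs, Hnrnp or Hnrp, together with Rbm39, Tra2a, Tra2b, Srrm1 and Srrm2. They were 32 genes with 65 probes, of 16593 named genes and 25697 probes on the array. Of these, 48 probes of 25 genes had a mean normalized intensity over 7.1 (log2), the level that parts the brighter from the dimmer probes of the array at equal numbers, and were tested. They held 15 probes of 8 of the 9 SR proteins, 6 probes of 3 of the 5 SR-related genes (Rbm39, Srrm2 and Tra2a) and 27 probes of 14 of the 18 hnRNP genes.

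All cells were transfected once with Lipofectamine and 200 nM of a hairpin inhibitor. The control groups received a negative control hairpin, labelled scrambled, and the other groups an inhibitor of miR-135b (anti-miR-135b). RNA was profiled at 24 h (n = 2 per arm), 48 h (n = 3 per arm) and 72 h (n = 3 per arm), on 16 arrays of 2 chips. Chip 1 held both arms at 48 h and the 24 h controls, and chip 2 held both arms at 72 h and the 24 h anti-miR-135b samples. Samples are named here by group and by the number in their label. No label says that samples of a group came from separate cultures, so the p-values measure the spread between these samples only. All samples came from 1 cell line, and no probe named Mir135b (0 probes) was in the tables used here, so the silencing of the microRNA was not checked on these arrays.

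SR proteins carry a domain of arginine and serine repeats, bind exonic enhancers through their RNA recognition motifs and recruit the spliceosome to nearby splice sites. The hnRNPs coat nascent transcripts and often act against SR proteins by silencing splice sites, and many also serve in export, stability and translation of messenger RNA. Members of both families limit their own messages by splicing in exons that lead to decay, so the level of a message and that of its protein need not move together.

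The inhibitor is directed at miR-135b, whose sequence is shown as the RefSeq hairpin (GRCm38.p6, chr1:132198088-132198184, plus strand) beside the mature miR-135a-5p (chr9:106154140-106154162, plus strand), which carries the same 7 letters of the seed. Capitals mark that seed, bases 2 to 8 of the mature strand, which starts to match at base 17 of the hairpin.
Mir135b hairpin: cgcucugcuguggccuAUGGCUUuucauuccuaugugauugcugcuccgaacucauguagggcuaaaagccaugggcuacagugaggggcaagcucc
mmu-miR-135a-5p: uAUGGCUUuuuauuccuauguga
No search for matches to this seed in the messages of the members was made.

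The median intensity of an array before normalization ran from 281.2 to 346.8. The 48 member probes spread more between arrays of a group than the rest, with a median residual SD of 0.34 (log2) against 0.28 over all 12848 probes tested. At 48 h the mean raw intensity was 986.8, 767.6 and 865.2 on the control arrays and 580, 756.7 and 636 on the anti-miR-135b arrays, so every inhibitor array was dimmer there. The part of this in the results at 48 h was not tested. Of the markers of the labelled cell type, 7 of 8 epithelial genes with a probe passed the filter, among them Krt8, Krt18, Cdh1 and Elf5. Of other cell types, 1 of 5 leukocyte genes (Cd14), 3 of 9 fibroblast and endothelial genes and 2 of 5 adipocyte genes passed, while Ptprc, the pan-leukocyte phosphatase, did not.

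Silencing of miR-135b was compared with the control at 48 h and at 72 h, the times at which both arms shared a chip. No member changed past an adjusted p of 0.05 in limma's test at 48 h, at 72 h or in the mean of both times. Rbm39 measured lower under the inhibitor on every array, by 0.81 (log2) at 48 h and 0.79 at 72 h. Srsf6 measured higher under the inhibitor, by 1.06 at 72 h and 0.32 at 48 h. Several hnRNP probes lay above the control at 48 h and below it at 72 h.

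Rbm39 is a splicing factor and a coactivator of nuclear receptors. Its probe measured 8.12, 8.48 and 8.49 in the control and 7.45, 7.78 and 7.44 under anti-miR-135b at 48 h. At 72 h it measured 8.66, 8.84 and 8.44 in the control and 7.43, 8.22 and 7.93 under anti-miR-135b. The arms did not overlap at either time, although the margin at 72 h was small. The mean difference over both times was -0.80 ± 0.15 (SE), a 1.74-fold lower level, with an unadjusted p of 7e-05 and an adjusted p of 0.159 in limma. Rbm39 was the 1 member probe of 48 (2.08%) that was lower without overlap at both times, against 0.568% of all probes tested. No member (0 of 48) was higher without overlap at both times, against 0.428%. At 24 h, where the arms lay on different chips, it measured 8.62 and 9.03 in the control and 8.2 and 8.33 under anti-miR-135b.

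Srsf6, an SR protein that binds exonic enhancers and has been studied as an oncogene in epithelia, had 1 probe. At 72 h it measured 8.67, 9.22 and 9.18 in the control and 9.96, 10.19 and 10.1 under anti-miR-135b. At 48 h it measured 9.63, 10.09 and 9.71 in the control and 10.24, 10.22 and 9.93 under anti-miR-135b. The arms were apart by more than their ranges at 72 h and overlapped at 48 h. The difference at 72 h was 1.06 ± 0.23 (SE), 2.09-fold, with an unadjusted p of 0.00026 and an adjusted p of 0.396 in limma. Within the control arm the 72 h values lay below those at 48 h, while those under the inhibitor overlapped between the times, which lay on different chips, so that time and chip cannot be told apart in either. The change of the inhibitor difference from 48 to 72 h was 0.74 ± 0.33 (SE), with an adjusted p of 0.852 in limma.

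**Figure D1:**
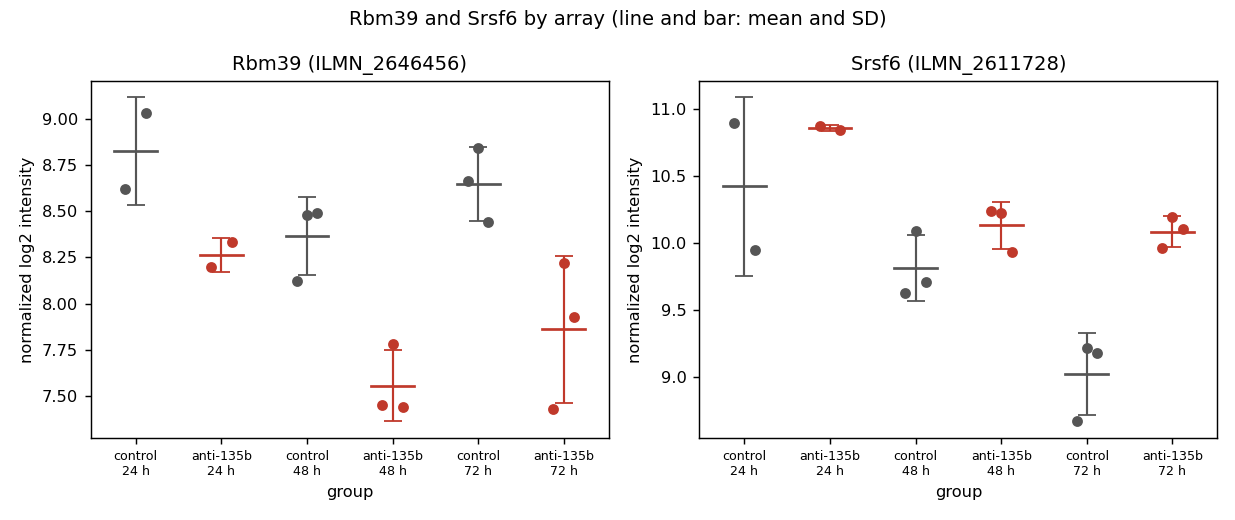
Normalized log2 intensity (y axis) of Rbm39 and Srsf6 on each array by group (x axis), with points for arrays and lines and bars for mean and SD. Rbm39 was 7.44 to 7.78 under anti-miR-135b and 8.12 to 8.49 in the control at 48 h, and Srsf6 was 9.96 to 10.19 and 8.67 to 9.22 at 72 h. The 2 panels have axes of their own that do not start at 0.

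The other SR proteins lay near the control. The median inhibitor difference of the 15 SR probes was -0.03 at 48 h and 0.04 at 72 h. Both probes of Srsf1, the founding SR protein and an oncogene in mammary epithelium, differed by -0.39 and -0.43 at 48 h and by 0.31 and 0.17 at 72 h. The 3 probes of Srsf2, a component of nuclear speckles that also acts in pausing of RNA polymerase, differed at 48 h by 0.33, 0.02 and -0.49. The probes of 1 gene therefore lay on both sides of the control. At 72 h, 1 of 2 probes of Srsf5 was below the control by 0.52, with an unadjusted p of 0.037 and an adjusted p of 0.643 in limma.

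Among SR-related genes, Srrm2, a scaffold of nuclear speckles, had 4 tested probes. They differed from the control by -0.04 to 0.47 at 48 h and by -0.45 to 0.08 at 72 h. The largest of these at 72 h, -0.45 ± 0.19 (SE), had an unadjusted p of 0.033 and an adjusted p of 0.628 in limma. Tra2a, which binds purine-rich enhancers together with SR proteins, differed by 0.16 and -0.08. Srrm1 and Tra2b had 1 probe each, both under the filter.

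Of the hnRNP probes, 7 of 27 were higher at 48 h by an unadjusted p under 0.05. They belonged to Hnrnpa1, Hnrnpa2b1, Hnrnpf, Hnrnph1 (3 probes) and Hnrnpk. Among all members this was 7 of 48 probes (14.6%) against 3.06% of all probes tested, and 1 (Rbm39) was lower (2.08%) against 3.18%. By adjusted p it was 0 of 48 against 0% of all probes.

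Hnrnpf binds runs of guanine, and its probe measured 8.95, 9.47 and 8.14 in the control and 9.69, 9.8 and 9.76 under anti-miR-135b at 48 h. For Hnrnpa1, the best known silencer of exons, a probe (ILMN_3096701) measured 9.11, 9.63 and 8.02 in the control and 9.84, 9.85 and 9.69 under the inhibitor. Hnrnpa2b1, its close relative that also carries messages along microtubules, measured 9.93, 10.19 and 7.94 in the control and 10.49, 10.54 and 10.83 under the inhibitor with probe ILMN_2615855. In all 3 the arms did not overlap, and control replicate 6 was the lowest array. Without that array the differences were 0.53 for Hnrnpf in place of 0.89, 0.42 for Hnrnpa1 in place of 0.87, and 0.56 for Hnrnpa2b1 in place of 1.27. The number of member probes higher by unadjusted p was then 2 of 48, against 2.41% of all probes. It was 3 without anti-miR-135b replicate 15 (1.51% of all), 4 without replicate 14 (5.18%), and 6 to 10 without each of the other 3 arrays of 48 h (2.92% to 3.28%). The direction of the split was not stable. Scaled by the array median, 1 member probe was higher and 10 lower (0.802% and 19.5% of all probes). With array weights 2 were higher and 4 lower (4.97% and 4.99%). Without anti-miR-135b replicate 14 there were 6 lower (6.22%) beside the 4 higher.

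Different probes of these genes did not all give this picture. The other tested probe of Hnrnpa2b1, which matches another transcript of the gene, was below the control by 0.39 at 48 h, and the other Hnrnpa1 probe differed by -0.02. That Hnrnpa1 probe was dim, with a mean of 7.27 against the filter level of 7.1, so a change would be hard to see on it. All 5 probes of Hnrnph1, a relative of Hnrnpf, lay above the control at 48 h, by 0.24 to 0.67. The 3 probes of Hnrnpk, which binds cytosine-rich RNA and DNA, lay above it by 0.04 to 0.76. Of 14 genes with several tested probes, 5 had all their differences on 1 side at 48 h and 4 at 72 h. These counts include dim probes, as of Hnrnpa1 (mean of 7.27), Hnrnpk (7.32) and Hnrnph1 (7.39). The families hold near-identical relatives and processed pseudogenes, and the sequences of the probes were not used here, so cross-hybridization was not tested.

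At 72 h, 6 of the 7 hnRNP probes that were higher at 48 h by unadjusted p lay below the control, by -0.24 to -0.75, and that of Hnrnpk lay above it, by 0.38. Hnrnpa1 (ILMN_3096701) measured 9.96, 9.41 and 9.9 in the control and 8.79, 8.83 and 9.41 under anti-miR-135b, so the arms met at 9.41. Its difference was -0.75 ± 0.32 (SE), with an adjusted p of 0.628 in limma. Hnrnpll, a regulator of alternative exons in lymphocytes, was above the control by 0.90 ± 0.33 (SE) with 1 of its 2 probes (adjusted p of 0.605 in limma) and by -0.16 with the other.

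**Figure D2:**
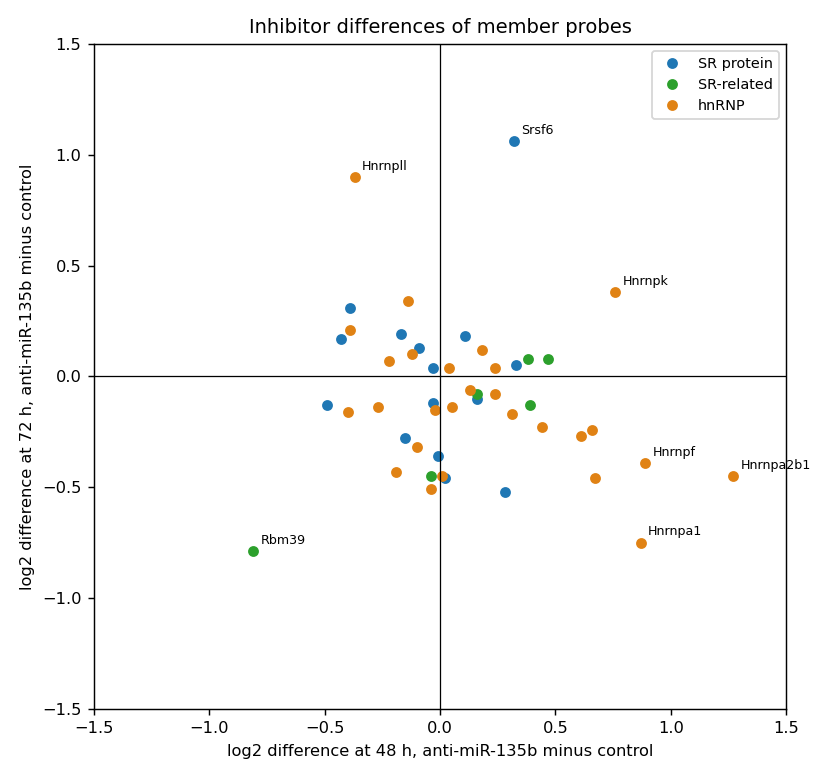
Inhibitor difference (anti-miR-135b minus control, log2) at 48 h (x axis) and at 72 h (y axis) for the 48 tested member probes, coloured by family. Rbm39 lies at -0.81 and -0.79, Srsf6 at 0.32 and 1.06, and probes of Hnrnpa1, Hnrnpa2b1 and Hnrnpf lie above 0 at 48 h and under 0 at 72 h.

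Over all members the median inhibitor difference was 0.03 at 48 h, -0.13 at 72 h and 0.03 in the mean of both, against -0.01, -0.01 and 0 over all probes tested. At 72 h, 2 members (4.17%) were higher and 4 (8.33%) lower by unadjusted p, against 4.49% and 2.64% of all probes. The 2 were Srsf6 and Hnrnpll, and the 4 were Rbm39, Hnrnpa1, Srrm2 and Srsf5. Leaving out control replicate 7 or 9 or anti-miR-135b replicate 16 left 1 lower (1.98% to 3.35% of all probes), as did median scaling (0.623%). The lower members were 8 with only the groups compared (3.35% of all probes) and 9 with only the arrays of the chip (3.74%). A block by the order of the label numbers gave 7 (4.83%). In the mean of both times, 2 were higher (Srsf6 and Hnrnpk, 4.17%) and 1 lower (Rbm39, 2.08%), against 3.84% and 4%. By adjusted p the share of all probes called was 0% at 72 h and 0% in the mean, as for the members.

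The inhibitor difference moved from 48 to 72 h by a median of -0.21 over the members and 0.01 over all probes. By unadjusted p, 7 members (14.6%) lay lower at 72 h than at 48 h and 2 (4.17%) higher, against 2.85% and 2.65% of all probes, and by adjusted p none did, against 0%. The split turned with the scaling and with 1 array. Scaled by the array median, 9 members were higher and 1 lower (17% and 0.669% of all probes). Without anti-miR-135b replicate 14 of 48 h 6 were higher and 4 lower (3.86% and 3.78%), and with array weights 2 and 3 (5.17% and 4.03%). The smallest p belonged to Hnrnpa1 (ILMN_3096701), at -1.62, and the furthest down was Hnrnpa2b1 (ILMN_2615855), at -1.72, each with an adjusted p of 0.852 in limma. Without control replicate 6 of 48 h the Hnrnpa1 value was -1.17.

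At 24 h the arms lay on different chips, which means that a chip effect and an inhibitor effect cannot be told apart. No member passed an unadjusted p of 0.05 (0 of 48 in each direction), against 2.51% of all probes higher and 1.55% lower, and none passed the adjusted p, against 0%. The lowest was Rbm39, at -0.56 ± 0.27 (SE), and the highest were probes of Hnrnpk, at 0.65, and Hnrnpdl, at 0.64, each with an adjusted p of 1 in limma.

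The change over time was compared within each chip, which gave 24 to 72 h for anti-miR-135b cells and 24 to 48 h for controls. From 24 to 72 h under anti-miR-135b, 9 member probes of 7 genes fell and 1 rose past an adjusted p of 0.05 in limma. Those that fell were Srsf1 (both probes), Hnrnpab, Hnrnpa2b1, Hnrnpk, Hnrnpu, Hnrnpf and Hnrnph1 (2 probes), with log2 changes from -1.66 to -0.90. Hnrnpdl rose by 1.36. The members called lower were 18.8% of 48 against 3.77% of all probes, and those called higher 2.08% against 4.2%. All 24 h samples took the last positions of their chip, which means that an effect of position and one of time cannot be told apart, and in these bulk cultures fewer cells of a kind and less RNA per cell cannot be told apart either.

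Over the 48 probes the median change was -0.40, with 38 (79.2%) under 0, against 0.01 and 48.7% over all probes tested. With no filter it was -0.26 over all 65 member probes, with 48 of 65 under 0, against 0.01 over all 25697 probes. The median was -0.40 for SR proteins, -0.13 for SR-related genes and -0.71 for hnRNPs. On single arrays the median of the member probes was 9.44 and 9.47 at 24 h and 8.78, 8.88 and 9.11 at 72 h, while that of all tested probes was 8.14 on each. These medians were 9.4 and 9.58 at 24 h and 9, 9.01 and 9.18 at 72 h in the controls, which lay on different chips at those times.

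**Figure D3:**
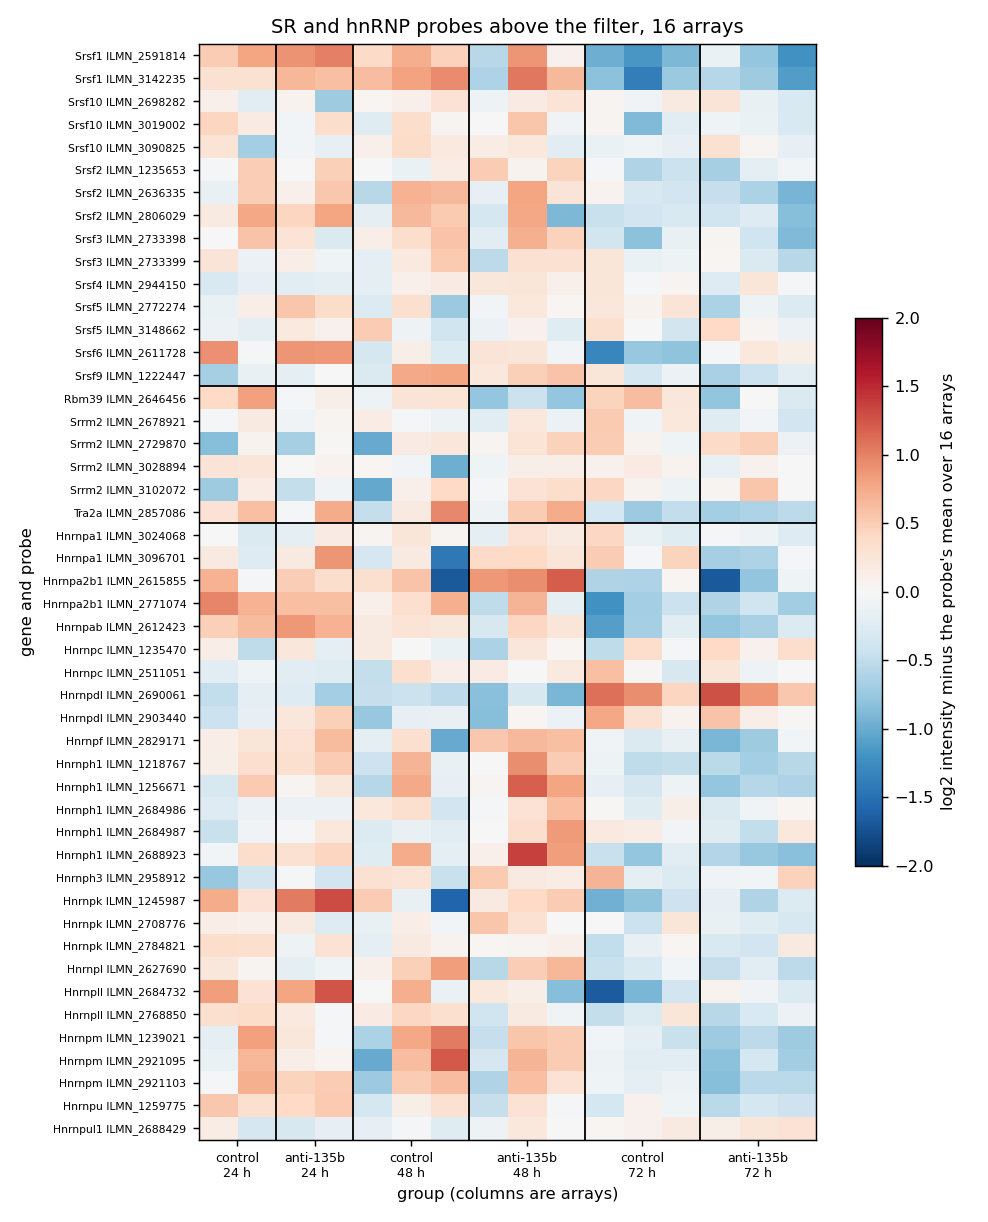
Normalized log2 intensity of the 48 tested member probes (rows, by family) on 16 arrays (columns, by group), each minus the mean of the probe over all arrays. Both 72 h groups are mostly blue, as for Srsf1 with 10.87 to 11.94, and Hnrnpdl (ILMN_2690061) is red with 10.41 to 11.25.

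Srsf1 gave the largest fall. Its first probe (ILMN_2591814) measured 12.97 and 13.08 at 24 h, 11.53, 12.96 and 12.16 at 48 h and 11.94, 11.3 and 10.87 at 72 h under anti-miR-135b. In the controls it measured 12.58 and 12.86, then 12.46, 12.81 and 12.54, then 11.1, 10.91 and 11.18. The 72 h arrays of both arms lay below every 24 h array, and the 48 h arrays of the inhibitor arm spanned much of the range. The change under anti-miR-135b was -1.66 ± 0.33 (SE), a 3.16-fold lower level, with an adjusted p of 0.00639 in limma. The second probe (ILMN_3142235) fell by 1.44 (adjusted p of 0.0175), and across the 16 arrays the probes had a correlation of 0.93.

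Other SR proteins had values in the same direction that did not pass the test. The 3 probes of Srsf2 changed by -0.55, -1 and -1.11 (lowest adjusted p of 0.072 in limma), and those of Srsf3, the smallest SR protein and an export adaptor, by -0.40 and -0.30. Srsf6 had a value of -0.77 and 1 probe of Srsf5 one of -0.80 (adjusted p of 0.0778 and 0.0657 in limma), while the second Srsf5 probe was at -0.03. Srsf4 was at 0.20, the 3 probes of Srsf10, which turns into a repressor when dephosphorylated, at -0.32 to 0.25, and Srsf9 at -0.36. Tra2a had a value of -0.96 (adjusted p of 0.0918 in limma), Rbm39 of -0.41, and the Srrm2 probes of -0.22 to 0.56.

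Among hnRNPs, Hnrnpab, which binds RNA and the CArG element of DNA, had the smallest adjusted p of those that fell. It measured 15.37 and 15.21 at 24 h, 14.19, 14.93 and 14.75 at 48 h and 13.74, 13.86 and 14.23 at 72 h under anti-miR-135b. The 24 h and 72 h arrays did not overlap. It fell by 1.35 ± 0.26 (SE), 2.55-fold, with an adjusted p of 0.00532 in limma.

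Hnrnpk (ILMN_1245987) measured 11.52 and 11.78 at 24 h, 10.65, 10.87 and 10.98 at 48 h and 10.31, 9.87 and 10.2 at 72 h under anti-miR-135b. No array of one time overlapped with another time. The 48 h arrays lay on the other chip, here and for the other genes whose 48 h values are given, so their place in the order mixes chip and time. It fell by 1.52 ± 0.40 (SE), with an adjusted p of 0.0255 in limma, and its other probes were at -0.20 and -0.26. Hnrnpa2b1 (ILMN_2771074) measured 9.96 and 9.97 at 24 h and 8.77, 8.97 and 8.67 at 72 h, and fell by 1.16 ± 0.30 (SE, adjusted p of 0.0253 in limma). Its other tested probe had a value of -1.27 with a wider spread and an adjusted p of 0.136 in limma.

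Hnrnpu, which binds chromatin and keeps it open, measured 8.65 and 8.77 at 24 h and 7.71, 7.89 and 7.83 at 72 h, a fall of 0.90 (adjusted p of 0.0301 in limma). Hnrnpf measured 9.44 and 9.79 at 24 h and 8.24, 8.44 and 9.1 at 72 h, a fall of 1.03 (adjusted p of 0.0474 in limma). The 24 h and 72 h arrays did not overlap for either gene. Of 5 Hnrnph1 probes, 2 fell, with log2 changes of -1 and -1.09 (adjusted p of 0.0436 and 0.0497 in limma), and the others were at -0.80, -0.26 and 0. Hnrnpm, a regulator of exons in epithelial cells, had 3 probes at -0.71 to -1.11 (lowest adjusted p of 0.0695 in limma), and Hnrnpa1 had 2 at -0.14 and -0.98.

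Hnrnpdl, a relative of the AU-rich element binding protein encoded by Hnrnpd, was the member that rose. Probe ILMN_2690061 measured 9.73 and 9.3 at 24 h, 9.14, 9.67 and 9.07 at 48 h and 11.25, 10.85 and 10.52 at 72 h under anti-miR-135b. In the controls it measured 9.49 and 9.79, then 9.52, 9.55 and 9.46, then 11.08, 10.91 and 10.41. All 72 h arrays were above all others in both arms. The rise under anti-miR-135b was 1.36 ± 0.26 (SE), 2.56-fold, with an adjusted p of 0.00532 in limma. Its second probe was at -0.11, so the probes of this gene differed in the sign of their change.

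Hnrnpc, which binds uridine tracts and guards introns, had 2 probes at 0.26 and 0.28, Hnrnpl, which binds CA repeats, had 1 at -0.27, and Hnrnph3 had 1 at 0.32. One of the 5 Hnrnpul1 probes was tested and was at 0.46 (adjusted p of 0.171 in limma). Hnrnpa3 (3 probes), Hnrnpr (3 probes), Hnrnph2 (2 probes), Hnrnpd and Srsf12 had no probe above the filter. Of 14 genes with several tested probes, 11 had all their changes on 1 side. The dim probes of Hnrnpa1, Hnrnpk and Hnrnph1 named above, at -0.14, -0.20 and 0, count here too.

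**Figure D4:**
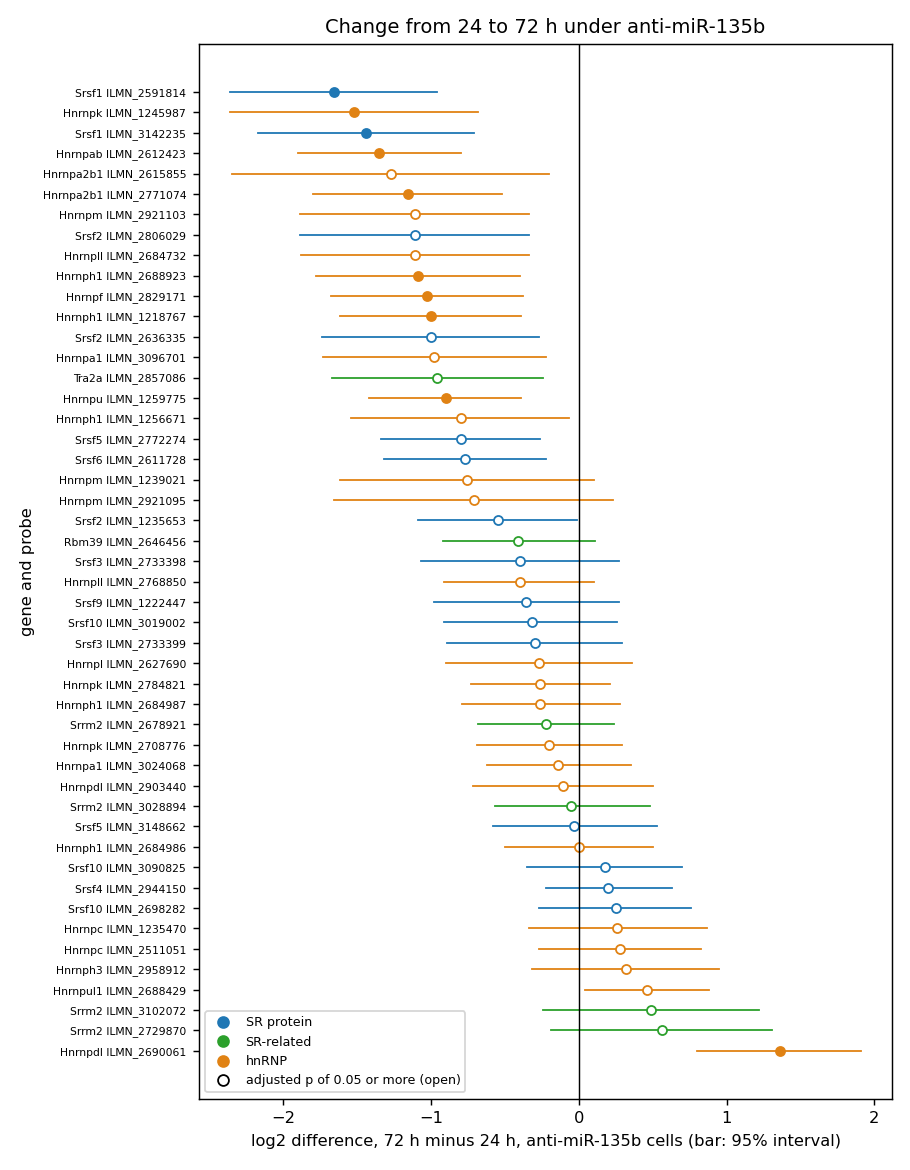
Change from 24 to 72 h in anti-miR-135b cells (log2, x axis) with its 95% interval for the 48 tested member probes (y axis), coloured by family, with filled points for an adjusted p under 0.05. The 9 filled points on the left run from -1.66 to -0.90 and the 1 on the right is Hnrnpdl at 1.36.

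The count of 10 fell with each array left out, and most with an array of 24 h. Leaving out anti-miR-135b replicate 12 or 11 of 24 h leaves 1 array in that group, so only the median change is given, at -0.42 or -0.46. Without replicate 16, 17 or 18 of 72 h the count was 4, 5 and 4. The calls over all probes in these fits are not given, so the counts do not show a loss particular to the members. By unadjusted p, 17, 20 and 19 members were then lower, against 9.18% to 10.6% of all probes. In the same fits 2, 1 and 1 were higher, against 9.53% to 10.8%. The 10 values kept their sign with each array left out. Among the brighter probes (above the 75th percentile, 6424 probes), 9 of 34 member probes fell (26.5%) against 6.55% of all, and 1 rose (2.94%) against 8.72%. Scaled by the array median, no member probe passed (377 of all probes), with 20 lower and 1 higher by unadjusted p, against 10.4% and 8.1% of all probes.

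The controls had no 24 h and 72 h arrays on 1 chip, so their change between those times is given as values only. Each of the 10 called probes had the same sign there, at -1.66 and -1.29 for Srsf1, -1.21 for Hnrnpab, -1.60 for Hnrnpa2b1, -1.24 for Hnrnpk and -0.36 to -0.63 for Hnrnpf, Hnrnpu and Hnrnph1. Hnrnpdl was at 1.16. The median over the 48 probes was -0.33 in the controls against 0 over all probes tested. Whether the change over time differed between the arms was not tested.

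**Figure D5:**
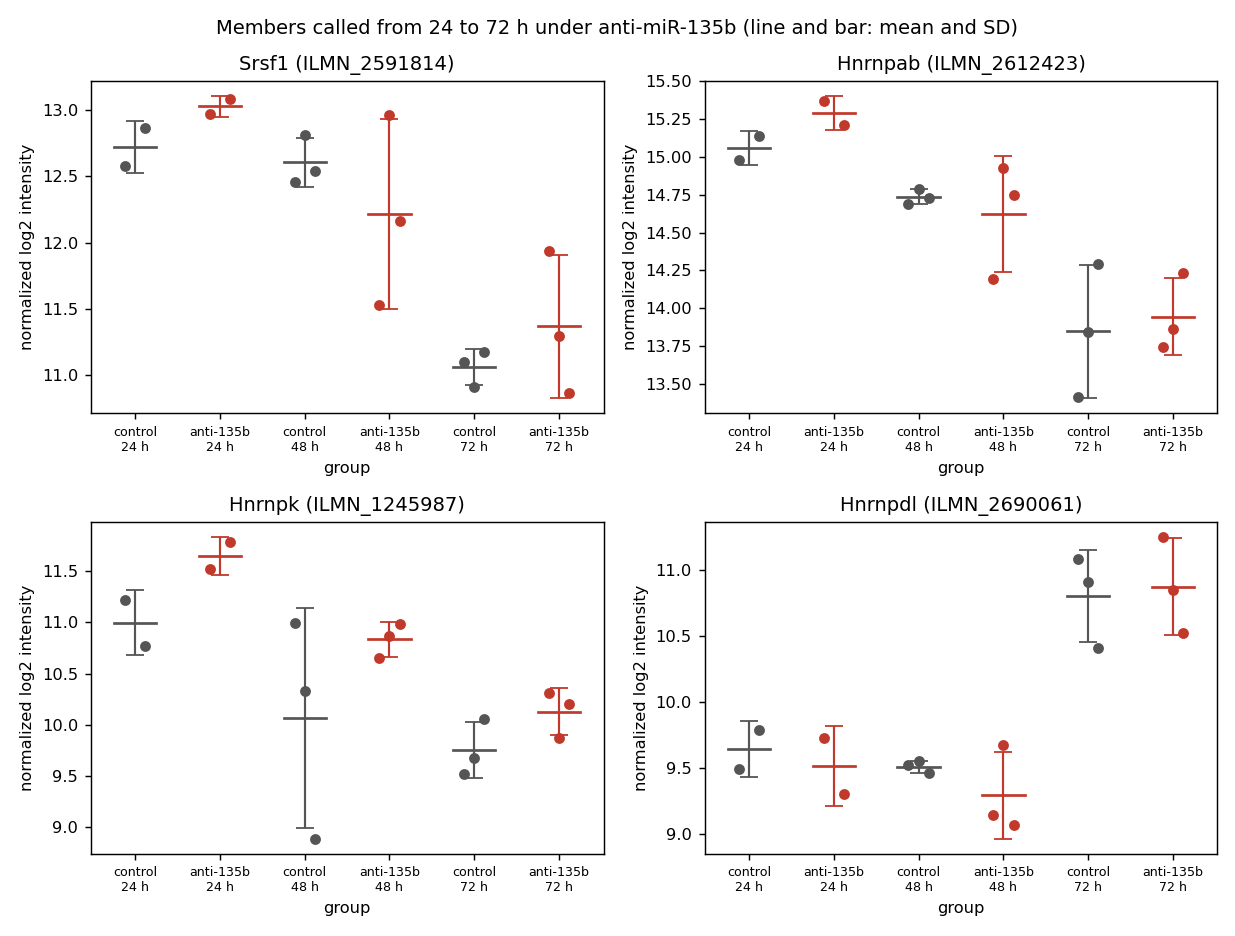
Normalized log2 intensity (y axis) of Srsf1, Hnrnpab, Hnrnpk and Hnrnpdl on each array by group (x axis), with points for arrays and lines and bars for mean and SD. In both arms Srsf1 went from at least 12.58 at 24 h to at most 11.94 at 72 h, and Hnrnpdl from at most 9.79 to at least 10.41. The panels have axes of their own that do not start at 0.

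From 24 to 48 h in the controls no member changed past an adjusted p of 0.05 in limma (0 of 48 in each direction), against 0.49% of all probes higher and 0.436% lower. By unadjusted p, 1 member was higher and 3 lower, against 7.1% and 5.3% of all probes. Scaled by the array median, the split over all probes was 1241 higher and 24 lower in place of 63 and 56. The median of all probes was then 0.32 in place of 0.02. The members by unadjusted p were then 8 higher and 0 lower in place of 1 and 3, against 25.5% and 1.04% of all probes. Srsf9, an SR protein also bound to stress bodies, had the smallest p. It measured 10.65 and 11.17 at 24 h and 11.03, 12.08 and 12.11 at 48 h, with an overlap. The difference of 0.83 ± 0.30 (SE) had an adjusted p of 0.223 in limma, which was 0.036 for a difference of 1.18 without control replicate 4 of 48 h. Hnrnpk (ILMN_1245987) was at -0.93 and Srsf6 at -0.60 (adjusted p of 0.335 and 0.34 in limma).

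The promoters of 4 of the called genes are shown from RefSeq (GRCm38.p6), from 250 bases before to 50 bases after the start of the gene, in the sense of the gene. Whether their letters bear on the changes over time was not tested. Capitals mark each CCAAT and its reverse, ATTGG.
Srsf1 (chr11:88047123-88047422, strand +): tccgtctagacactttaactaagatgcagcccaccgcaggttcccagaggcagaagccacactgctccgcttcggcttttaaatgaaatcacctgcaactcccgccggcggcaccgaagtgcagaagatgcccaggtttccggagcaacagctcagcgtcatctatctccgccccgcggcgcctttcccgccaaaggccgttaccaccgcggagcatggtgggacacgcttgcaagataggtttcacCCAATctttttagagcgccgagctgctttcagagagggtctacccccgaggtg
Hnrnpab (chr11:51606832-51607131, strand -): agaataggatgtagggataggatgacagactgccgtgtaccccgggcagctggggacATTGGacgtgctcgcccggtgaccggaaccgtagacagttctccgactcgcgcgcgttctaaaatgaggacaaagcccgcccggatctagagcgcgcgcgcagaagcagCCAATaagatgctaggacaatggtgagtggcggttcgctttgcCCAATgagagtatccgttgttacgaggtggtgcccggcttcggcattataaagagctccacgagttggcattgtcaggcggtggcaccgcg
Hnrnpk (chr13:58402068-58402367, strand -): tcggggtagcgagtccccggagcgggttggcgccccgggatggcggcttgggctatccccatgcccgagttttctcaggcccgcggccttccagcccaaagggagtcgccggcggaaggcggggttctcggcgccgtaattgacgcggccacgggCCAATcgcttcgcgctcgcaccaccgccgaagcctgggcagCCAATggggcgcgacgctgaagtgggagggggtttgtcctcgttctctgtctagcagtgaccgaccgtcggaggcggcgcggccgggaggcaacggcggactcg
Hnrnpdl (chr5:100039173-100039472, strand -): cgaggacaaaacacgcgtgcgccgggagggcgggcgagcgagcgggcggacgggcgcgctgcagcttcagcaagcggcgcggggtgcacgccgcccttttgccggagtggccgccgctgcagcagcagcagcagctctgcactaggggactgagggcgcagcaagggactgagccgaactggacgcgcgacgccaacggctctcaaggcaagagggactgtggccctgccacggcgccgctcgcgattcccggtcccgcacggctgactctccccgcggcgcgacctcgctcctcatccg
The first marked box begins at position -3 from the start in Srsf1, at -193 in Hnrnpab and at -95 in Hnrnpk, and the window of Hnrnpdl holds 0. Hnrnpab has 3 of them, Hnrnpk 2 and Srsf1 1.

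Promoters were found for 31 of the 32 genes. CCAAT or ATTGG occurred in 18 of 31 (58.1%) against 39% of all 17492 protein-coding genes, and in 5 of the 7 genes with a called fall. Hnrnpf and Hnrnpu, which also fell and are not shown above, had neither. The GC box, GGGCGG or CCGCCC, occurred in 23 of 31 (74.2%) against 46.3%. It occurred in 4 of the 7 genes with a called fall and in Hnrnpdl. TATAAA or TTTATA occurred in 12.9% against 13.3%, CACGTG in 12.9% against 7.9%, and CCGGAAG or CTTCCGG in 12.9% against 11.9%. The median GC content of the members' windows was 64% against 56.3%, with 30 CpG in a window against 13. None of the motifs is contained in another, and a match describes letters only.

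Genes that act with these families were counted on the brightest tested probe of each. From 24 to 72 h under anti-miR-135b, 3.77% of all probes tested fell and 4.2% rose past the threshold. These are the shares to set beside the counts of each list below. For the comparison from 24 to 72 h under anti-miR-135b, 2 of 33 measured genes of the core spliceosome fell and none rose, with a median of -0.11. They were Prpf3, a protein of the tri-snRNP, at -1.22 ± 0.28 (SE, adjusted p of 0.013 in limma), and Snrpb, a core protein of most spliceosomal particles, at -1.07 ± 0.25 (SE, adjusted p of 0.015 in limma). Of 32 other splicing regulators, 2 fell and 1 rose, with a median of -0.27. Those that fell were Elavl1, which stabilizes messages with AU-rich elements, by 0.94, and Esrp1, the epithelial splicing regulator, by 0.74 (adjusted p of 0.033 and 0.032 in limma). Cirbp, a cold-inducible RNA-binding protein, rose by 1.2 ± 0.22 (SE, adjusted p of 0.0044 in limma), and by 1.40 ± 0.22 (SE, adjusted p of 0.0055 in limma) from 24 to 48 h in the controls. By unadjusted p, 9 of these 32 regulators were lower and 2 higher from 24 to 72 h under anti-miR-135b. Of the 33 core genes, 4 were lower and 0 higher. Over all probes tested it was 11.3% lower and 11.8% higher.

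Of 10 measured kinases, phosphatases and import factors of SR proteins, 1 rose and none fell from 24 to 72 h under anti-miR-135b, with a median of -0.03. It was Clk3, a kinase of SR proteins, by 0.93 ± 0.22 (SE, adjusted p of 0.018 in limma). Of 12 genes of nonsense-mediated decay and the exon junction complex none passed (0 in limma, 1 higher and 0 lower by unadjusted p), with a median of -0.13. Over all probes tested, 11.8% were higher and 11.3% lower by unadjusted p. From 24 to 48 h in the controls U2af1l4, a paralog of the small subunit that reads the end of introns, rose by 0.89 ± 0.20 (SE, adjusted p of 0.042 in limma). None of these genes passed in the inhibitor comparisons at 48 h, at 72 h or in their mean (0 in limma, and at most 2 per list and direction by unadjusted p). By unadjusted p, 2.64% to 4.49% of all probes passed per direction there.

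Some markers of the epithelium moved over the same interval. From 24 to 72 h under anti-miR-135b, Krt18 rose by 1.33 ± 0.23 (SE, adjusted p of 0.0029 in limma) and Krt8 by 0.98 ± 0.19 (SE, adjusted p of 0.0057 in limma). They were 2 of 7 measured markers, against 4.2% of all probes called higher, and no marker was called lower. By sign, 5 of the 7 were higher and 2 lower, with a median of 0.24. The summed level of the 8 epithelial genes with a probe was 35573 to 40774 at 24 h and 50921 to 60571 at 72 h in linear normalized intensity. In the controls it was 33420 to 42519 and 51406 to 60719. The summed level of 5 leukocyte genes, nearly all of it Cd14, was 21988 to 28903 and 15120 to 41544, that of 9 fibroblast and endothelial genes 978 to 1109 and 955 to 1406, and that of 5 adipocyte genes 640 to 734 and 545 to 679. None of the markers of other cell types passed the test (0 in limma, 0 by unadjusted p). The part of the shift in keratins in the falls of splicing factors was not tested.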

How the data were processed

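Total RNA of 16 samples of TUBO cells was labelled as biotin cRNA and hybridized to Illumina mouse bead arrays. The authors deposited a table of non-normalized intensity values, made with GenomeStudio (version not given) per the submitters' processing notes. A second deposited table has log2 values of the same arrays, with medians of 8.24 to 8.26. Its 16 columns each had the highest rank correlation with the array of their own sample (0.999 or more), how it was normalized is not stated, and it served as an alternative.

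Here the intensities were background-corrected by normexp (saddle, offset of 50) and quantile normalized, with limma 3.58.1 under R 4.3.3. The offset narrows differences of dim probes. Detection p-values and control probes were not used. Probes with a mean above the median of all probes were kept (12848 probes, 9032 named genes), and each was fitted with lmFit and eBayes with a mean for each of 6 groups (10 residual and 7.8 prior degrees of freedom). P-values are two-sided and adjusted by Benjamini-Hochberg within each contrast over all probes tested, with a threshold of 0.05. Differences are anti-miR-135b minus control, or later minus earlier time. The number of arrays limits the precision. The steps were tested on simulated data.

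The members, the lists and the tests were chosen with earlier results of these data known. The main SR proteins, SR-related genes and hnRNPs were always described, with the 3 smallest p-values per direction in each contrast, all members past the threshold and up to 3 genes past it per list. Lists were the core spliceosome, other splicing regulators, SR kinases with phosphatases and import factors, nonsense-mediated decay with the exon junction complex, and markers of epithelium, leukocytes, fibroblasts and endothelium, and adipocytes. The label numbers are unique to each sample and pair none. Alternatives were no background correction, an offset of 16, median scaling, the deposited value table, no filter, a stricter filter (above the 75th percentile), array weights, fits on the groups or the chip compared, a block by the order of the label numbers, and leaving out each array.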

Additional observations from a re-analysis of the deposited data

How the results depend on the processing

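In the anti-miR-135b change from 24 to 72 h, 10 member probes were called. The count was 0 under median scaling, 6 with no filter, 17 with array weights, 21 with only the groups compared and 22 with only the arrays of the chip. Leaving out 1 array of 72 h gave 4 or 5. Among arrays left out, the largest loss of calls came from an array of 24 h, which leaves 1 array in its group. All 10 remained called with array weights and in the fits on the groups or the chip compared. The calls over all probes moved too. They were 540 higher and 485 lower in the main fit, 183 and 194 under median scaling and 378 and 366 with no filter. With array weights they were 1110 and 1068. They were 739 and 782 with only the groups compared, and 693 and 744 with only the arrays of the chip. In the inhibitor difference at 72 h a replicate block by the order of the label numbers called 1 member (Srsf6, adjusted p of 0.025) and 58 of all probes. In the mean of 48 and 72 h it called 2 (Srsf6, 0.025, and Rbm39, 0.0069), and array weights called 1 (Rbm39, 0.024), in place of 0. Over all probes the block called 100 in the mean and array weights called 8. The labels do not pair the samples by their numbers, and the block could not be fitted for the changes over time, since each pair lies within 1 time. From 24 to 48 h in the controls the count was 1 (Srsf9) under median scaling, with array weights and without control replicate 4 of 48 h, in place of 0, and leaving out 1 array gave 0 to 1. Over all probes, 1241 were called higher and 24 lower under median scaling, and 198 and 154 with array weights. The calls over all probes with 1 array left out are not given here for either change over time. Under median scaling the inhibitor difference had a median over all probes of -0.27 at 48 h and 0.12 at 24 h. Its change between 48 and 72 h had a median of 0.37. In the main fit these were -0.01, -0.01 and 0.01. The members' medians under median scaling were -0.23, 0.21 and 0.37, in place of 0.03, 0.07 and -0.21. Of 766 alternative values for 48 named results, 699 kept their direction and their side of the threshold, 56 kept the direction and were no longer called, 7 became called and 4 changed sign. Those 4 were not called: Srsf10 (ILMN_2698282) at 24 h, at 0.13 without anti-miR-135b replicate 12 (-0.65 to 0.13 over the arrays left out), Srsf6 at 24 h, at -0.03 without control replicate 3 (-0.03 to 0.91), Srsf10 (ILMN_3090825) in the control change, at -0.05 without control replicate 3 (-0.05 to 0.90), and Srsf6 in the control change, at 0.05 under median scaling. The cause of these moves was not tested.

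The 24 h groups held 2 arrays each, so leaving 1 out rests on the spread of the other groups. Probes under the filter could not be told from background without detection values. The rule for samples that stand apart needs at least 4 samples, and no group had that many.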
